A study of Homo sapiens with 8 samples.

Results

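The genes described here are the expressed members of the ZNF series, the human zinc-finger genes whose symbol is ZNF followed by digits and at most a single letter A or B. A gene was taken when its mean over the 8 libraries of the study reached 200 raw counts, which left 274 members of the 554 rows with such a symbol, among 63677 genes in all. The other 280 rows lay under that mean, and 66 of the 554 had no count in any library. The members were thus selected on their mean count, and ZNF341, an activator of STAT genes, was singled out by its response to ACBI-1 in these libraries, so its levels are given as a description with no test. Just inside the rule stood ZNF420 at a mean of 200.6 counts, ZNF25 at 201.5 and ZNF587B at 202.4, and just outside it ZNF268 at 199.5, ZNF514 at 199.1 and ZNF70 at 197.8. Of the 274, 239 reached the mean within each line, 21 only through DND-41 and 14 only through MOLT-4. By treatment, 10 of the 274 reached it only through the ACBI-1 libraries and 6 only through the DMSO libraries. A member that met the rule through 1 line or 1 treatment is given without a test of the comparison between them.

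Most ZNF genes encode proteins with a row of C2H2 zinc fingers, each of which folds around a zinc ion and reads a few bases of DNA. The largest class carries in addition a KRAB box, which binds the corepressor TRIM28 and through it the histone methyltransferase SETDB1 and heterochromatin proteins, and many of these genes stand in tandem clusters on chromosome 19. Members without a KRAB box include promoter activators, partners of chromatin complexes and proteins that act on RNA or the ribosome. ZNF341 is known for activating the transcription of STAT3, and its loss in humans causes a form of hyper-IgE syndrome.

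RNA was measured in 2 established T-cell acute lymphoblastic leukaemia (T-ALL) lines, in 4 groups of 2 libraries: DND-41 cells given ACBI-1 at 100 nM, DND-41 cells given DMSO, MOLT-4 cells given ACBI-1 at the same dose, and MOLT-4 cells given DMSO, all harvested at 8 h. ACBI-1 is a degrader molecule that brings the VHL ubiquitin ligase to SMARCA2 and SMARCA4, which power the nucleosome-moving BAF complexes, and to PBRM1, so the groups ask which transcripts move once those proteins are targeted. Each line is a single culture lineage, the protein loss was not measured here, and separate cultures are not stated for the 2 libraries of a group, so the p-values rest on library-to-library spread alone, which may be no more than technical. In bulk RNA, fewer cells of a kind and less RNA per cell cannot be told apart.

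Library totals ran from 19860759 to 20239888 counts, so that 3 counts equal about 0.15 CPM, the counts scaled to a fixed library total, and replicates had Pearson correlations of log2 CPM from 0.9977 to 0.9987. Of 10 T-lineage markers, 9 in both DND-41 groups and 10 in both MOLT-4 groups lay above that floor, while the 3 erythroid markers were at 0 and the 5 myeloid markers summed to at most 0.546 CPM. The T-lineage sum was 5541 to 5589 CPM with ACBI-1 and 4933 to 4941 CPM with DMSO in DND-41, and 2576 to 2666 CPM with ACBI-1 and 2982 to 3008 CPM with DMSO in MOLT-4. In DND-41 the B-lineage sum was 976 to 1080 CPM with ACBI-1 and 1645 to 1652 CPM with DMSO, with MS4A1 and PAX5 at 0, and in MOLT-4 it was 3.87 to 4.20 CPM with ACBI-1 and 7.499 to 7.78 CPM with DMSO. The 5 stromal or epithelial markers summed to 132 to 135 CPM with ACBI-1 and 296 to 299.9 CPM with DMSO in DND-41, and to 162 to 167 CPM with ACBI-1 and 304 to 392 CPM with DMSO in MOLT-4, with EPCAM at 0. Among them COL1A1 stood at 0 and 10.7 CPM with ACBI-1 and at 2.08 and 52.4 CPM with DMSO in MOLT-4, higher in both replicate 2 libraries. The part of these shifts in the ZNF results was not tested. Levels below are CPM over effective library size, a log2 fold change divides ACBI-1 by DMSO and carries ± SE (2 libraries against 2), and a gene is called when its adjusted p in edgeR's quasi-likelihood test lies below 0.05.

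ZNF341 had the largest rise of all members in both lines. In DND-41 it stood at 55.8 and 61.4 CPM with ACBI-1 and at 8.81 and 10.5 CPM with DMSO, a log2 fold change of 2.60 ± 0.09. In MOLT-4 it stood at 72.4 and 69.9 CPM with ACBI-1 and at 14.6 and 16.2 CPM with DMSO, a log2 fold change of 2.21 ± 0.08. The 4 ACBI-1 libraries all lay above the 4 DMSO libraries, by 6.08-fold in DND-41 and 4.62-fold in MOLT-4. Ranked by log2 fold change among all genes at the same mean count, ZNF341 was number 6 of 8786 in DND-41 and number 4 of 8834 in MOLT-4. Its nearest tested neighbours on chromosome 20 did not rise with it. The log2 fold change of PXMP4 was 0.23 ± 0.14 in DND-41 and 0.04 ± 0.09 in MOLT-4 (adjusted p = 0.194 and 0.742), and that of CHMP4B was −0.25 ± 0.07 and −0.39 ± 0.06 (adjusted p = 0.00708 and 1.95e-05). Exons of ZNF341 lie over an antisense gene, ZNF341-AS1, and the strand setting used in counting is not given, so reads of the pair cannot be told apart here.

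Promoters of the members at both ends of the spread are shown for comparison of their letters. Each sequence runs from 250 bases before to 50 bases after the annotated start in RefSeq, build GRCh38.p14, and 238 of the 274 members matched that table. Capitals mark matches, on either strand, to any of 11 textbook motifs. The core of ETS factors was searched as CCGGAAG and the CRE core of CREB as TGACGT. The GC box of Sp1 was searched as GGGCGG, the box of NF-Y as CCAAT and the core of RBPJ, the DNA-binding partner of Notch, as TGGGAA. The E-box was searched as CACGTG, the core of RUNX factors as TGTGGT and the AP-1 site as TGACTCA. The NRF1 core was searched as GCATGCG, the TATA box was read as TATAAA, and the core of ZNF143 itself as ACTACAA. Matches of different motifs were allowed to overlap. ZNF341, ZNF25 and ZNF333 had the highest log2 fold changes in both lines, and those of ZNF768 and ZNF629 were among the lowest. The windows are chr20:33731746-33732045, plus strand (ZNF341), chr10:37976598-37976897, minus strand (ZNF25), chr19:14689798-14690097, plus strand (ZNF333), chr16:30526517-30526816, minus strand (ZNF768) and chr16:30787156-30787455, minus strand (ZNF629).
ZNF341: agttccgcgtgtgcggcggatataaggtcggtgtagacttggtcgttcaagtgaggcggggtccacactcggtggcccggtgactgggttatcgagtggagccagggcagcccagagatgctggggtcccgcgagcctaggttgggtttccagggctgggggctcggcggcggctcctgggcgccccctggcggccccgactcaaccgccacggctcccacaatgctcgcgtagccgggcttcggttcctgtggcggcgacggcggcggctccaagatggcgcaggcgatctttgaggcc
ZNF25: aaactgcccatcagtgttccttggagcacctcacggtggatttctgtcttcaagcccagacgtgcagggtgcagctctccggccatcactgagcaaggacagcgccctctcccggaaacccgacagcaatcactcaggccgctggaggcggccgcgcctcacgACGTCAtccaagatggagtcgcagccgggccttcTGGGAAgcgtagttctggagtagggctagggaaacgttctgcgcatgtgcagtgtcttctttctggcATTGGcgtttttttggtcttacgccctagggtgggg
ZNF333: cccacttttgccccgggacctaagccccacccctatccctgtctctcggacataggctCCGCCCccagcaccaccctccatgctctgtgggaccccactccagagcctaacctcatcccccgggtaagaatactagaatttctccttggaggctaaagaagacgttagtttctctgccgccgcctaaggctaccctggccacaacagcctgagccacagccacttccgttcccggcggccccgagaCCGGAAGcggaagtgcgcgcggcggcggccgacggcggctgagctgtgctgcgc
ZNF768: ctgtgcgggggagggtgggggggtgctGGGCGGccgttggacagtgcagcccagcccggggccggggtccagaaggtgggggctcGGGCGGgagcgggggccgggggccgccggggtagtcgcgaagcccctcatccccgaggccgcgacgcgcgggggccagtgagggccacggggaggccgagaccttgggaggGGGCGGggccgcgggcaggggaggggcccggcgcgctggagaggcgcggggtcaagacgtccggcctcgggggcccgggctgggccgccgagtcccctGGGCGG
ZNF629: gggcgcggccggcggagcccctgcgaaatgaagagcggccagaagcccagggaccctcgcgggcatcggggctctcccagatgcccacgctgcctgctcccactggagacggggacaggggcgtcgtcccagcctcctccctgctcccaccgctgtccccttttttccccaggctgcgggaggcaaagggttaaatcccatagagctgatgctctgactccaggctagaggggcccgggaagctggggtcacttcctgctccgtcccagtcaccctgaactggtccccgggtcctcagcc
The ZNF25 window held a CRE core, a CCAAT box and an RBPJ core, ZNF333 an ETS core and a GC box, and ZNF768 4 GC boxes, while none of the 11 motifs was found in the ZNF341 and ZNF629 windows.

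The next highest log2 fold changes in both lines belonged to ZNF25 and ZNF333, both KRAB members. ZNF25 measured 15.02 and 13.9 CPM with ACBI-1 and 4.51 and 3.66 CPM with DMSO in DND-41, and 17.2 and 15.3 CPM with ACBI-1 and 6.15 and 5.03 CPM with DMSO in MOLT-4. It was 3.53-fold and 2.91-fold higher with ACBI-1 (log2 fold change 1.82 ± 0.14 and 1.54 ± 0.12), and since it met the count rule only through those libraries no test is given. ZNF333 measured 37.8 and 44.1 CPM with ACBI-1 and 18.3 and 17.9 CPM with DMSO in DND-41, and 22.3 and 22.3 CPM with ACBI-1 and 10.9 and 10.6 CPM with DMSO in MOLT-4. Its log2 fold change was 1.18 ± 0.09 in DND-41 and 1.05 ± 0.09 in MOLT-4 (adjusted p = 9.28e-08 and 1.50e-08). In neither gene did the treated and control libraries of a line overlap. ZNF143, a promoter activator of small nuclear RNA and many protein genes, rose by 0.74 ± 0.09 and 0.63 ± 0.08 (adjusted p = 1.29e-05 and 1.76e-06), with 38.4 and 32.9 CPM with ACBI-1 and 22.3 and 20.4 CPM with DMSO in DND-41. ZNF561, a KRAB member, rose by a like amount, with log2 fold changes of 0.74 in DND-41 and 0.72 in MOLT-4. ZNF784 stood at 0.75 and 0.67, and met the rule only through the ACBI-1 libraries. Beyond ZNF341, ZNF25 and ZNF333, no member rose by 2-fold in either line, and these 3 made 1.1% of the 273 tested in each, against 0.763% of all genes at the same mean count in DND-41 and 0.894% in MOLT-4. With ZNF341 singled out by its response and ZNF25 chosen through the ACBI-1 libraries, these shares are a description with no test.

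**Figure D1:**
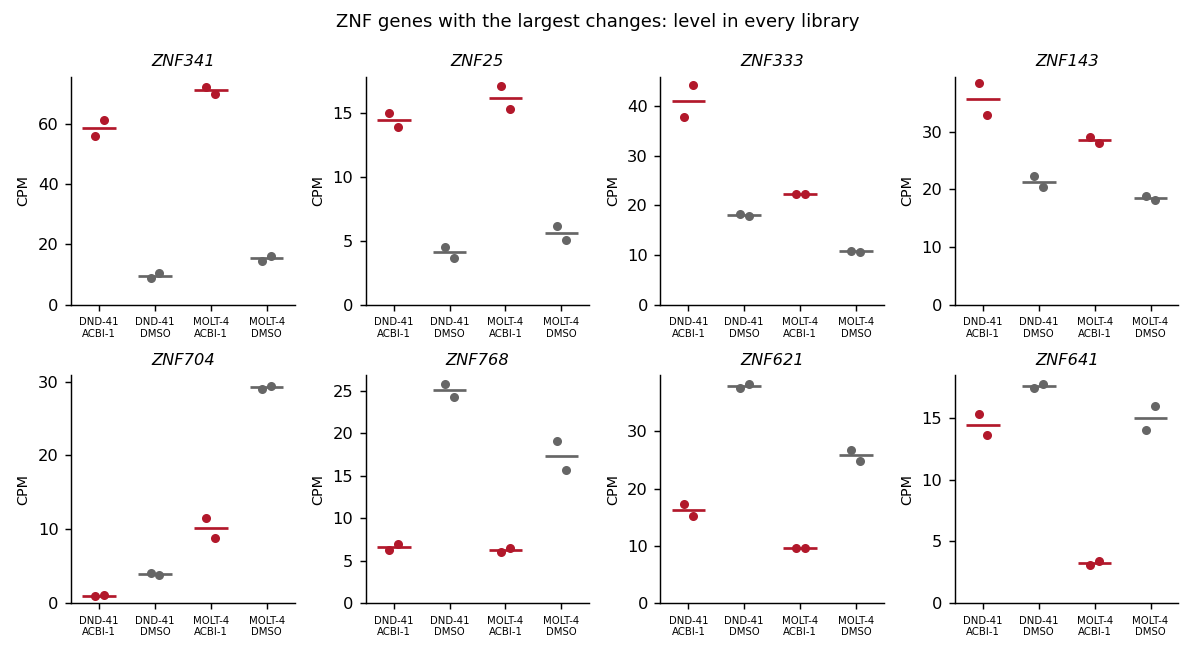
Level in CPM (vertical axes, each from 0) of 8 ZNF genes in the 8 libraries, with ACBI-1 libraries in red, DMSO libraries in grey and a bar at each group mean. ZNF341, ZNF25, ZNF333 and ZNF143 are higher with ACBI-1 in both lines, ZNF704, ZNF768 and ZNF621 are lower in both, and ZNF641 is lower by far more in MOLT-4 than in DND-41.

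At the other end, ZNF704, ZNF768, ZNF621, ZNF7 and ZNF629 were lower by at least 2-fold in both lines. All but ZNF621 met the count rule only through the DMSO libraries, where they are high, so their log2 fold changes are given without a test. ZNF704, a relative of the hypoxia-linked factor ZNF395, measured 0.967 and 1.02 CPM with ACBI-1 and 4.005 and 3.71 CPM with DMSO in DND-41 and 11.5 and 8.82 CPM with ACBI-1 and 29.02 and 29.4 CPM with DMSO in MOLT-4. Its log2 fold change was −1.95 ± 0.25 in DND-41 and −1.52 ± 0.10 in MOLT-4. ZNF768, known to bind MIR transposon copies, measured 6.26 and 7.01 CPM with ACBI-1 and 25.8 and 24.3 CPM with DMSO in DND-41 and 6.0001 and 6.48 CPM with ACBI-1 and 19.1 and 15.6 CPM with DMSO in MOLT-4, log2 fold changes of −1.92 ± 0.11 and −1.47 ± 0.12. For both genes the treated libraries lay below every control library of the same line. ZNF621 fell, with log2 fold changes of −1.23 ± 0.09 and −1.43 ± 0.09 (adjusted p = 4.08e-08 and 2.21e-10), on 17.3 and 15.1 CPM with ACBI-1 and 37.6 and 38.3 CPM with DMSO in DND-41. ZNF629 was at −1.03 ± 0.15 in DND-41 and −1.32 ± 0.09 in MOLT-4, and ZNF7 at −1.04 ± 0.10 and −1.92 ± 0.11. ZNF496, which in mouse is a partner of the histone methyltransferase NSD1, fell by 2-fold or more in DND-41 alone (−1.15 ± 0.07, adjusted p = 6.79e-09), with −0.97 ± 0.06 in MOLT-4 (adjusted p = 5.09e-11). ZNF276 and ZNF696, named after their values were seen, passed 2-fold in MOLT-4 with −1.24 ± 0.10 and −1.03 ± 0.11. The 7 members lower by 2-fold in DND-41 and the 8 in MOLT-4 made 2.56% and 2.93% of those tested, against 3.98% and 4.47% of all genes at the same mean count. ZNF704, ZNF768, ZNF7 and ZNF629 are among them in both lines, and ZNF641 in MOLT-4. Those members met the count rule through the DMSO libraries only, so these shares are a description with no test.

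Several of these outliers lie beside or across another gene that moved the same way. Neighbours were taken at any count, and of all tested genes 20% rose and 23.2% fell in DND-41, and 20.7% and 24.4% in MOLT-4. Whether neighbours moved with the outliers more often than other genes was not tested. The nearest tested neighbour of ZNF768, on the opposite strand, is ITGAL, which encodes the leukocyte integrin alpha L. ITGAL fell, with log2 fold changes of −2.15 ± 0.14 in DND-41 and −2.69 ± 0.07 in MOLT-4 (adjusted p = 1.50e-08 and 2.40e-16). ZNF620, next to ZNF621 on the same strand, fell, with log2 fold changes of −1.01 ± 0.24 and −0.93 ± 0.25 (adjusted p = 0.00389 and 0.00437). COMMD5, whose exons overlap ZNF7 on the other strand, fell, with log2 fold changes of −0.83 ± 0.11 and −0.92 ± 0.12 (adjusted p = 2.54e-05 and 3.85e-06). BCL7C, beside ZNF629, fell, with −0.50 ± 0.09 and −0.52 ± 0.08 (adjusted p = 2.57e-04 and 2.01e-05). PAG1, beside ZNF704, fell, with −0.70 ± 0.07 and −0.25 ± 0.08 (adjusted p = 2.20e-06 and 0.0185). ZNF248, beside ZNF25, rose, with 0.28 ± 0.09 and 0.41 ± 0.10 (adjusted p = 0.0248 and 0.00216). The neighbours that follow were not called or moved the opposite way, and not every neighbour is given here. ZNF33A, which lies nearer to ZNF25 than ZNF248 does, was at 0.12 ± 0.07 and −0.05 ± 0.07 (adjusted p = 0.203 and 0.563). RPSAP47, which lies nearer to ZNF704 than PAG1 does, was at −0.002 ± 0.12 and −0.016 ± 0.08 (adjusted p = 0.991 and 0.89). ZNF747, on the far side of ZNF768, was at −0.04 ± 0.11 and −0.20 ± 0.09 (adjusted p = 0.777 and 0.0819). NDUFB7, beside ZNF333, was at 0.01 ± 0.07 and −0.01 ± 0.06 (adjusted p = 0.96 and 0.932). ILVBL, on its other side, was at −0.33 ± 0.09 and −0.17 ± 0.07 (adjusted p = 0.00972 and 0.071). CTNNB1, on the other side of ZNF621, was at 0.04 ± 0.07 and 0.16 ± 0.05 (adjusted p = 0.651 and 0.0193). Exons of 98 members lie over a gene on the opposite strand, ZNF7, ZNF276 and ZNF333 among them, and the part of such overlap in their values was not tested.

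Across the whole set, changes were small and leaned upward in DND-41. There 109 of 273 tested members rose and 31 fell (39.9% and 11.4%), where 26% of all genes at the same mean count rose and 26% fell (20% and 23.2% of all 14008 tested genes). The median log2 fold change was 0.16, with the middle 50% of members from −0.02 to 0.30, against a median of 0.02 over the 8786 genes. In MOLT-4, 65 of 273 rose and 48 fell (23.8% and 17.6%), where 27.1% of all genes at that count rose and 25.3% fell (20.7% and 24.4% of all 14239 tested genes), and the medians were 0.04 for members and 0.02 for the 8834 genes. ZNF521 was not tested in DND-41 and ZNF358 not in MOLT-4, where their counts were too low. The MOLT-4 balance depended on the scaling. With library size alone in place of TMM factors, 36 members rose and 61 fell, so that 37.1% of the calls were rises, against 57.5% with TMM, and the median turned to −0.04. The DND-41 count of rises was 68 without DMSO replicate 1 and 69 without DMSO replicate 2, and 66 with DESeq2.

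The spread of the members was set beside that of other genes of the same count. The SD of the log2 fold changes across members was 0.42 in both lines, against 0.46 in DND-41 and 0.50 in MOLT-4 over all genes at that mean, and without ZNF341 it was 0.39 and 0.40. A log2 change of less than 0.5 was found for 86.4% of members in DND-41 and 88.3% in MOLT-4, against 82.7% and 82.8% of all such genes. These shares are a description and were not tested.

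Of 272 members tested in both lines, 50 rose in both (18.4%, against 15.8% of 8741 genes at that mean), 26 fell in both (9.56%, against 17.4%) and 2 were called with opposite signs (0.735%, against 2.17%). A further 61 were called in DND-41 alone (22.4%, against 16.4%), 34 in MOLT-4 alone (12.5%, against 16.9%) and 99 in neither (36.4%, against 31.3%), and a call in a single line does not show that the lines differ. The log2 fold changes of the lines had a Pearson correlation of 0.80 over the 272 members and 0.66 without the 8 members past 2-fold in both, against 0.73 over the 8741 genes. Members share libraries, so the correlation is given as a description.

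**Figure D2:**
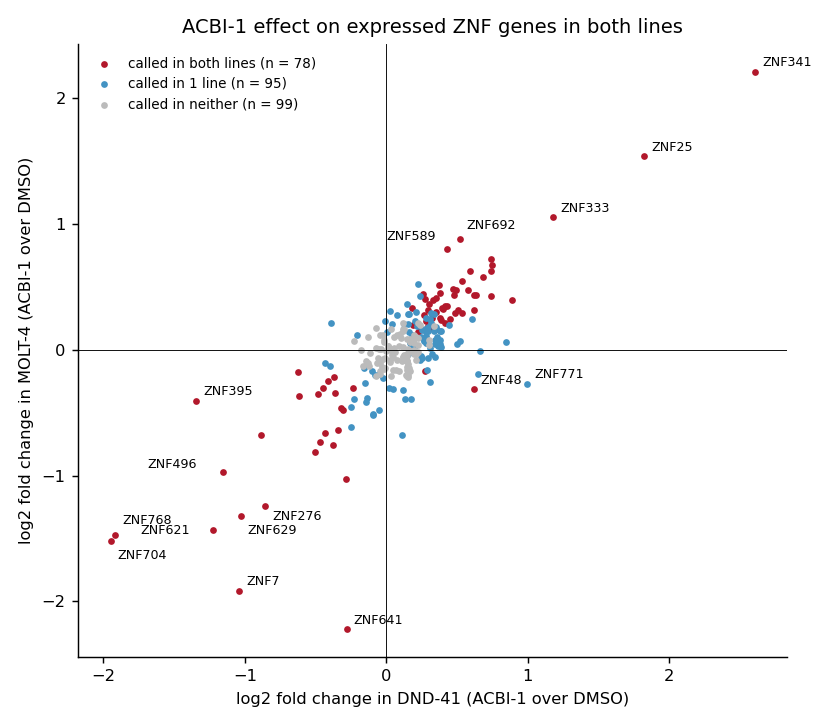
Log2 fold change of ACBI-1 over DMSO in MOLT-4 (vertical) against DND-41 (horizontal) for the 272 ZNF members tested in both lines, coloured by whether the gene was called in both lines (78), in 1 line (95) or in neither (99). Most members sit near 0, ZNF341, ZNF25 and ZNF333 lie at the upper right and ZNF704, ZNF768, ZNF621, ZNF629 and ZNF7 at the lower left.

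The response of some members differed between the lines, by the interaction of line and treatment in edgeR's quasi-likelihood test over all 8 libraries. The effect was higher in MOLT-4 than in DND-41 for 6 of 274 members and lower for 22 (2.19% and 8.03%), where 10.9% of all genes at that mean were higher and 8.51% lower (7.18% and 6.17% of all 15498 tested genes), and the median difference was −0.10 against 0.01. Among the 239 members that met the count rule in each line, 4 were higher and 19 lower (1.67% and 7.95%, against 11% and 8.21% of 8073 such genes), none differed by 2-fold, and the differences ran from −0.91 to 0.47. Over all 274, the lower count was 10 without DND-41 DMSO replicate 1 and 11 without MOLT-4 ACBI-1 replicate 1, and the higher count was 3 without DND-41 DMSO replicate 2. Library size alone, which moved the median difference of all genes by −0.12, gave 2 higher and 37 lower.

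The widest gaps lay in members that met the count rule through 1 line only, and these are given without a test of the difference. ZNF641, a KRAB member that met it through DND-41, measured 3.1 and 3.37 CPM with ACBI-1 and 14.1 and 16.04 CPM with DMSO in MOLT-4 (log2 fold change −2.22 ± 0.14) and 15.4 and 13.6 CPM with ACBI-1 and 17.5 and 17.8 CPM with DMSO in DND-41 (−0.28 ± 0.10), a difference of −1.92 ± 0.17. ZNF771, which also met it through DND-41, measured 8.8 and 8.92 CPM with ACBI-1 and 10.3 and 11.1 CPM with DMSO in MOLT-4 and 38.99 and 36.8 CPM with ACBI-1 and 19.2 and 18.9 CPM with DMSO in DND-41, a difference of −1.25 ± 0.13. Of the members that met the rule in each line, ZNF48, the neighbour of ZNF771 on chromosome 16, differed most. ZNF48 measured 41.4 and 38.8 CPM with ACBI-1 and 49.6 and 49.96 CPM with DMSO in MOLT-4 and 88.1 and 91.8 CPM with ACBI-1 and 57.8 and 59.7 CPM with DMSO in DND-41, so that it fell in MOLT-4 and rose in DND-41 (difference −0.91 ± 0.09, adjusted p = 5.64e-07). Exons of ZNF771 lie over DCTPP1 and those of ZNF48 over SEPT1, both on the opposite strand, and DCTPP1 had log2 fold changes of 0.34 ± 0.06 in MOLT-4 and 0.03 ± 0.06 in DND-41. The difference for ZNF7, −0.85 ± 0.16, is given without a test, since it met the count rule only through the DMSO libraries. ZNF135, a KRAB member, rose in DND-41 (0.64 ± 0.07, adjusted p = 6.25e-06) with −0.20 ± 0.10 in MOLT-4 (difference −0.82 ± 0.12, adjusted p = 8.45e-05).

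In the other direction, ZNF395, a hypoxia-linked factor, measured 36.6 and 38.6 CPM with ACBI-1 and 50.3 and 49.3 CPM with DMSO in MOLT-4 and 2.7 and 3.16 CPM with ACBI-1 and 6.76 and 8.19 CPM with DMSO in DND-41. Its difference of 0.96 ± 0.17 is given without a test, since it met the count rule through MOLT-4 only. ZNF395 shares 40.98% of its 100-base words with FBXO16, so reads of the pair may be split in counting. ZNF22 measured 44.4 and 46.2 CPM with ACBI-1 and 51.4 and 50.9 CPM with DMSO in MOLT-4 and fell in DND-41 (log2 fold change −0.63 ± 0.07, adjusted p = 2.59e-06). The difference was 0.47 ± 0.09 (adjusted p = 9.77e-04). ZNF692 and ZNF589 rose further in MOLT-4, with log2 fold changes of 0.88 and 0.80 there and 0.52 and 0.43 in DND-41. Their differences of 0.38 ± 0.09 and 0.39 ± 0.10 had adjusted p = 0.0114 and 0.0134, up to 0.193 and 0.187 without a single library or under another scaling. ZNF217, an oncogene product bound to the LSD1 and CoREST corepressor, was with ZNF48 the only member called with opposite signs (−0.17 in MOLT-4 and 0.27 in DND-41). Its difference was −0.43 ± 0.08 (adjusted p = 0.00192). Its MOLT-4 call ended with DESeq2, at an adjusted p below 0.01 and without ACBI-1 replicate 2 or DMSO replicate 2. Its DND-41 call ended without DMSO replicate 2.

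**Figure D3:**
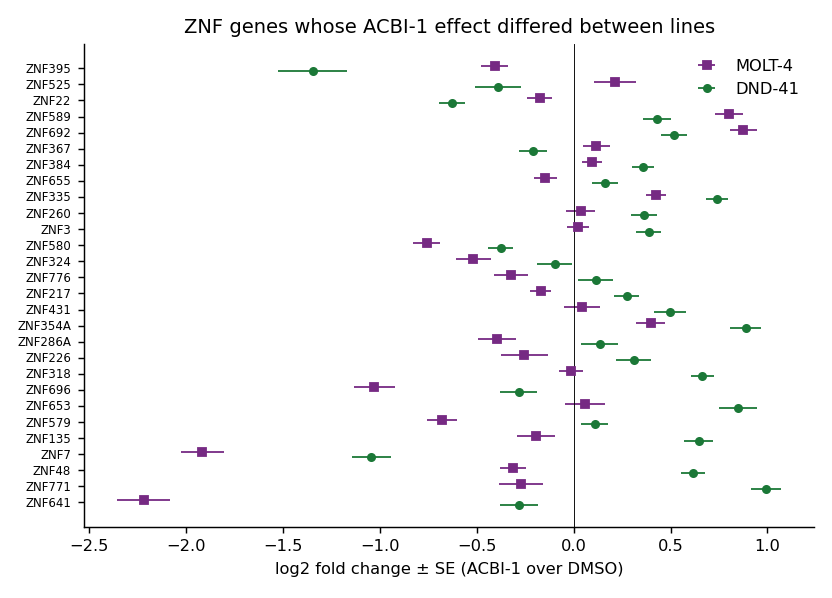
Log2 fold change ± SE of ACBI-1 over DMSO (horizontal) for the 28 ZNF members whose effect differed between lines, with MOLT-4 as squares above DND-41 as circles and genes ordered by the difference. ZNF641, ZNF771 and ZNF48 show the widest gaps with MOLT-4 lower, and ZNF395 the widest with MOLT-4 higher.

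By protein class, 165 members carried a KRAB box in the translated annotation, 105 did not and 4 had no protein, and the median member had 10 C2H2 fingers. Counts by class stand beside the 26% that rose and 26% that fell of all genes at that mean in DND-41, and the 27.1% and 25.3% in MOLT-4. In DND-41, 66 of 165 KRAB members rose and 11 fell (40% and 6.67%, median 0.18), and 41 of 104 members without the box rose and 20 fell (39.4% and 19.2%, median 0.15). In MOLT-4, 31 of 165 KRAB members rose and 21 fell (18.8% and 12.7%, median 0.04), and 31 of 104 others rose and 27 fell (29.8% and 26.0%, median 0.04). The KRAB members had the narrower spread, with an SD of 0.31 in DND-41 and 0.39 in MOLT-4, against 0.55 and 0.48 for the others. Of 55 members with 1 to 5 fingers, 20 rose and 14 fell in DND-41 (36.4% and 25.5%). In MOLT-4, 14 of them rose and 15 fell (25.5% and 27.3%). Of those with 12 or more, 44 of 101 rose and 5 fell in DND-41 (43.6% and 4.95%). In MOLT-4, 21 of 102 rose and 12 fell (20.6% and 11.8%). Of 6 members with no finger found, 0 fell in either line. These class differences were not tested, and library size alone moved all MOLT-4 effects by −0.08 at the median, which is more than the MOLT-4 medians here.

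**Figure D4:**
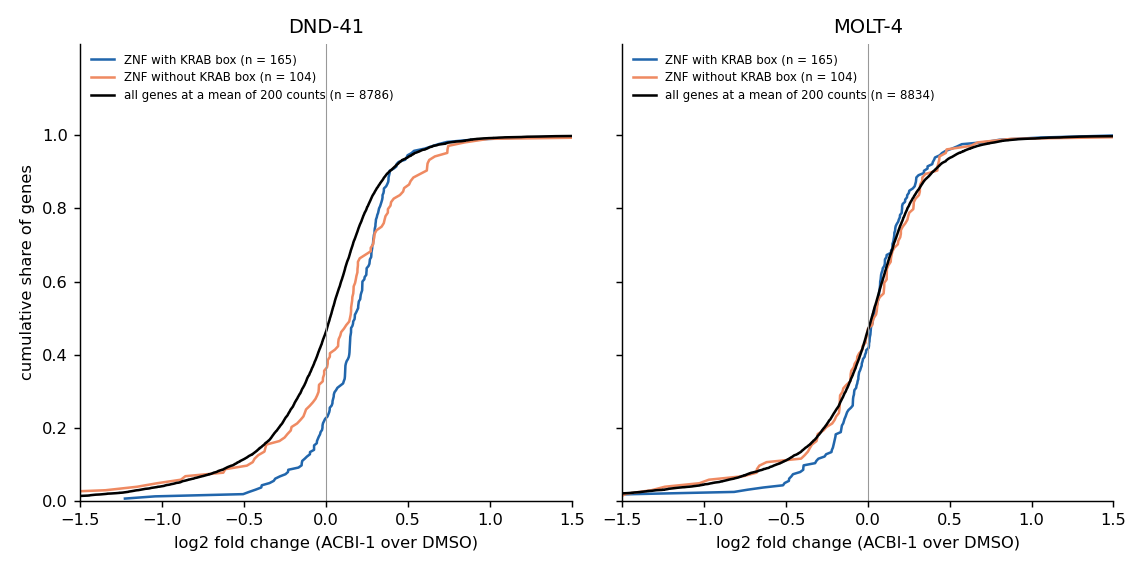
Cumulative share of genes (vertical, 0 to 1) against log2 fold change of ACBI-1 over DMSO (horizontal, shown from −1.5 to 1.5) in each line, for ZNF members with a KRAB box, members without one and all genes at a mean of 200 counts. In DND-41 both ZNF curves lie to the right of the curve of all genes around 0, and in MOLT-4 the 3 curves nearly coincide there.

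Chromosome 19 held 120 members, 97 of them with a KRAB box. Counts here stand beside the 26% that rose and 26% that fell of all genes at a mean of 200 counts in DND-41, and the 27.1% and 25.3% in MOLT-4. Of these 120, 45 rose and 8 fell in DND-41 (37.5% and 6.67%, median 0.15), and 21 of 119 rose and 15 fell in MOLT-4 (17.6% and 12.6%, median 0.04). Of members on other chromosomes, 63 of 151 rose and 23 fell in DND-41 (41.7% and 15.2%, median 0.16), and 42 of 152 rose and 33 fell in MOLT-4 (27.6% and 21.7%, median 0.03). The difference between these groups was not tested. No chromosome 19 member fell by 2-fold in either line and ZNF333 alone rose by 2-fold, while elsewhere 7 members in DND-41 and 8 in MOLT-4 were lower by 2-fold. Of all genes at that mean, 3.98% in DND-41 and 4.47% in MOLT-4 fell by 2-fold. ZNF704, ZNF768, ZNF7 and ZNF629, among those lower elsewhere, met the count rule only through the DMSO libraries. Of the members, 108 stood in 7 clusters on this chromosome. In the cluster from ZNF175 to ZNF331, with 25 members, all KRAB, 11 rose and 1 fell in DND-41 and 4 rose and 1 fell in MOLT-4. In the cluster from ZNF264 to ZNF446, with 28 members, 7 rose and 2 fell in DND-41 and 3 rose and 6 fell in MOLT-4. The cluster medians lay between 0.12 and 0.29 in DND-41 and between 0.0009 and 0.12 in MOLT-4. In none of the 7 clusters were all members called in a single direction.

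Without ACBI-1 the lines held these genes at different levels, MOLT-4 over DND-41 in the DMSO libraries. Among the 239 members that met the count rule in each line, 72 were higher and 80 lower in MOLT-4 (30.1% and 33.5%), where 35.6% of 8073 such genes were higher and 33% lower. Of 81 KRAB members on chromosome 19, 14 were higher and 31 lower in MOLT-4, and of 59 KRAB members on other chromosomes, 29 were higher and 18 lower. That split was not tested. ZNF862 measured 11.9 and 10.7 CPM in MOLT-4 and 33.2 and 30.7 CPM in DND-41 with DMSO (adjusted p = 1.62e-11 for the difference). At the largest gaps the count rule was met through a single line, so they are given with no test. ZNF141, a KRAB member, measured 5.76 and 6.96 CPM in MOLT-4 and 25.8 and 27.5 CPM in DND-41. ZNF521, a factor of early blood progenitors, measured 22.04 and 18.6 CPM in MOLT-4 and 0.0479 and 0.0487 CPM in DND-41, and ZNF358 0.106 and 0.601 CPM in MOLT-4 and 56.9 and 63.5 CPM in DND-41. ZNF518B, a partner of the PRC2 and G9a methyltransferases, was at 40.02 and 40.2 CPM in MOLT-4 and 3.83 and 4.63 CPM in DND-41. ZNF704 was at 30.9 and 31.3 CPM in MOLT-4 and 3.83 and 3.56 CPM in DND-41, on a scale set over the 4 DMSO libraries together, which shifts these levels a little from those within a line. These baseline genes were named after their values were seen. Per kilobase of annotated exon, the highest member with DMSO was ZNF775 in MOLT-4, at 54.95 CPM per kilobase there and 40.2 in DND-41, and ZNF598 in DND-41, at 28.4 in MOLT-4 and 41.7 in DND-41, whereas ZNF341 was at 2.82 in MOLT-4 and 1.77 in DND-41.

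Members with known roles outside KRAB repression were taken as 3 lists, of which only genes that met the count rule are counted. Of 10 promoter activators (of 11 listed), ZNF341 is described above. Of the other 9, 6 rose and 2 fell in DND-41 (66.7% and 22.2%, against 26% and 26% of all genes at a mean of 200 counts). In MOLT-4, 2 rose and 1 fell (22.2% and 11.1%, against 27.1% and 25.3%). ZNF76, the closest relative of ZNF143, rose with it in both lines, with 80.4 and 82.3 CPM with ACBI-1 and 56.1 and 53.2 CPM with DMSO in DND-41 and a log2 fold change of 0.57 ± 0.06, and 0.48 ± 0.06 in MOLT-4 (adjusted p = 4.94e-06 and 7.58e-07). ZNF384 rose in DND-41 (0.36 ± 0.06, adjusted p = 1.89e-04) and was at 0.10 ± 0.05 in MOLT-4. The DND-41 calls of this list numbered 5 without DMSO replicate 1 and 5 without DMSO replicate 2, against 9 with all libraries, ZNF341 included.

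Of 10 partners of chromatin complexes (of 15 listed), 3 rose and none fell in DND-41 and 4 rose and 2 fell in MOLT-4 in edgeR's test, with medians of 0.11 and −0.01. The shares that rose and fell of all genes at a mean of 200 counts were 26% and 26% in DND-41 and 27.1% and 25.3% in MOLT-4. ZNF335, part of a histone H3 methyltransferase assembly and in mouse needed for T-cell maturation, rose in both, with 195 and 204 CPM with ACBI-1 and 120.1 and 119 CPM with DMSO in DND-41 and 156 and 158 CPM with ACBI-1 and 113 and 121 CPM with DMSO in MOLT-4. Its log2 fold changes were 0.74 ± 0.06 and 0.42 ± 0.05 (adjusted p = 1.27e-07 and 2.15e-06). ZNF644, which binds the methyltransferases G9a and GLP, rose in DND-41 (0.29 ± 0.06, adjusted p = 0.00193). It also rose in MOLT-4 (0.19, adjusted p = 0.031), a call that ended with DESeq2 and with library size alone. ZNF592 and ZNF687, which sit together in a ZMYND8 complex, were at −0.04 and 0.02 in DND-41 and at −0.10 and −0.10 in MOLT-4, none of them called. The MOLT-4 calls of this list numbered 1 without ACBI-1 replicate 2, against 6 with all libraries.

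Of 10 members that act on RNA, ribosomes or the spindle (of 12 listed), 4 rose and 1 fell in DND-41 and 4 rose and 2 fell in MOLT-4, with medians of 0.06 and 0.07. The shares that rose and fell of all genes at a mean of 200 counts were 26% and 26% in DND-41 and 27.1% and 25.3% in MOLT-4. ZNF106 and ZNF638, both RNA-binding, rose in each line, ZNF106 by 0.51 ± 0.07 and 0.32 ± 0.05 and ZNF638 by 0.45 ± 0.06 and 0.25 ± 0.05, where the MOLT-4 call of ZNF638 ended with library size alone. ZNF622, a factor in the making of the large ribosomal subunit, fell in MOLT-4, with 8.1 and 9.33 CPM with ACBI-1 and 12.7 and 14.02 CPM with DMSO (−0.62 ± 0.11, adjusted p = 1.93e-04), and was at −0.25 ± 0.12 in DND-41. ZNF598, the ubiquitin ligase of stalled ribosomes, was at 0.01 ± 0.06 in DND-41, where it was not called. In MOLT-4 it rose by 0.14 ± 0.05 (adjusted p = 0.0425), a call that ended with DESeq2 and with library size alone. The DND-41 calls numbered 3 without DMSO replicate 1 and 2 without DMSO replicate 2, against 5.

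Of 12 members (of 17 listed) known for transposons, imprinted regions or model repression, 3 rose and 2 fell in DND-41 and 1 rose and 2 fell in MOLT-4, and no log2 fold change exceeded 0.64 in size. The shares that rose and fell of all genes at a mean of 200 counts were 26% and 26% in DND-41 and 27.1% and 25.3% in MOLT-4. ZNF445, which guards imprinted regions, was at −0.01 ± 0.08 in DND-41 and −0.01 ± 0.06 in MOLT-4, on 77.9 and 70.3 CPM with ACBI-1 and 77.9 and 71.4 CPM with DMSO in MOLT-4. ZNF93, which binds LINE-1 copies, was at −0.02 ± 0.07 in DND-41, where it was not called. In MOLT-4 it fell, with −0.22 (adjusted p = 0.0281), a call that ended with DESeq2. ZNF91, which binds SVA elements, measured 41.1 and 42.8 CPM with ACBI-1 and 36.9 and 32.8 CPM with DMSO in DND-41. ZNF417 shares 26.3% of its 100-base words with ZNF587, and both were uncalled. The DND-41 calls numbered 3 without either DMSO replicate, against 5.

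The corepressor genes that KRAB proteins work through moved in both directions. Of 33 genes, 10 rose and 10 fell in DND-41 (30.3% each, against 26% and 26% of all genes at a mean of 200 counts, with a median of −0.09). In MOLT-4, 3 rose and 13 fell (9.09% and 39.4%, against 27.1% and 25.3%, with a median of −0.03). The list was taken at any count, and of all tested genes 20% rose and 23.2% fell in DND-41, and 20.7% and 24.4% in MOLT-4. TRIM28, the adaptor that binds the KRAB box, measured 1004 ± 6.45 CPM with ACBI-1 and 1117 ± 27.5 CPM with DMSO in DND-41 (SD, n = 2 each) and had log2 fold changes of −0.15 ± 0.06 and −0.07 ± 0.07 (adjusted p = 0.06 and 0.413). SETDB1 was at −0.10 ± 0.07 and 0.09 ± 0.07 (adjusted p = 0.277 and 0.291). The deepest fall of the list was CHD4, an ATPase of the NuRD complex, with 105 ± 2.35 CPM with ACBI-1 and 449 ± 6.09 CPM with DMSO in DND-41 and 132 ± 2.64 CPM with ACBI-1 and 527 ± 14.7 CPM with DMSO in MOLT-4 (SD, n = 2 each). Its log2 fold changes were −2.10 ± 0.06 and −1.997 ± 0.06 (adjusted p = 6.83e-12 and 1.72e-15). DNMT3B, a DNA methyltransferase, fell, with −0.96 ± 0.09 in DND-41 and −0.89 ± 0.07 in MOLT-4, and the NuRD parts GATAD2A, GATAD2B, MTA3 and HDAC1 fell in both lines. RBBP7 fell in DND-41 alone, MTA1 and MTA2 in MOLT-4 alone, and CHD3, HDAC2, MBD3 and RBBP4 were called in neither. SUV39H1, a histone methyltransferase, rose by 0.26 ± 0.06 and 0.35 ± 0.06. The DND-41 calls of the list numbered 12 without DMSO replicate 2, against 20.

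**Figure D5:**
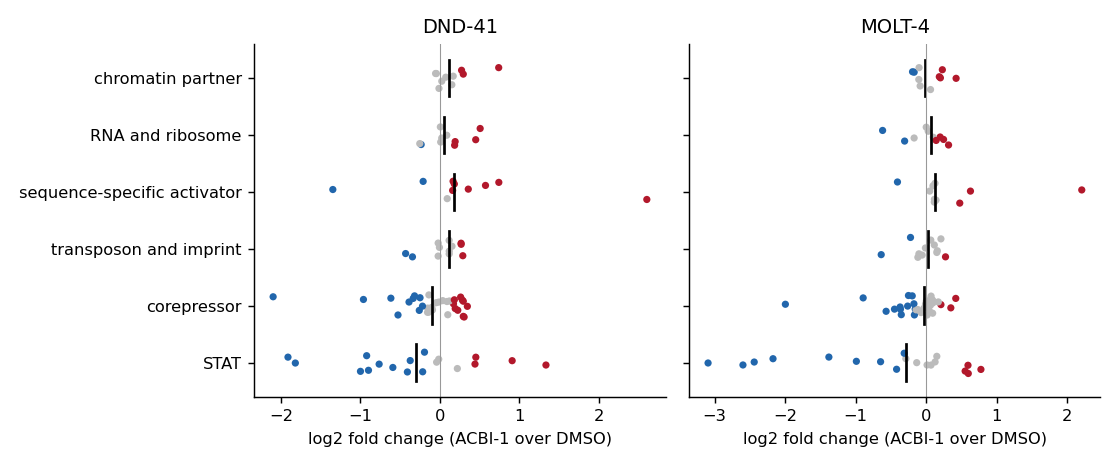
Log2 fold change of ACBI-1 over DMSO for the genes of 4 ZNF role lists, the corepressor list and the STAT list in each line, in red where called higher, blue where called lower and grey where not called, with a black bar at each list's median. The genes of the ZNF lists lie within 1 of 0 apart from ZNF341 and ZNF395, and the corepressor list has CHD4 at its lower end.

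Genes known to lie under ZNF341 or in the same signalling route were taken as a STAT list. Of these, 4 of 18 tested genes rose and 11 fell in DND-41 (22.2% and 61.1%, against 26% and 26% of all genes at a mean of 200 counts), and 4 of 19 rose and 9 fell in MOLT-4 (21.1% and 47.4%, against 27.1% and 25.3%), with a median of −0.29 in both. The list was taken at any count, with SOCS3 at a mean of 31.1 and IL21R at 27.5. Of all tested genes, 20% rose and 23.2% fell in DND-41, and 20.7% and 24.4% in MOLT-4. STAT3 fell, at 35.1 ± 1.27 CPM with ACBI-1 and 59.6 ± 0.802 CPM with DMSO in DND-41 and 168 ± 6.42 CPM with ACBI-1 and 225 ± 5.98 CPM with DMSO in MOLT-4 (SD, n = 2 each), log2 fold changes of −0.76 ± 0.07 and −0.42 ± 0.05 (adjusted p = 4.36e-07 and 2.95e-06). JAK3, the kinase of the common gamma chain, fell, with −1.82 ± 0.12 in DND-41 and −3.09 ± 0.09 in MOLT-4, and IL2RG, that chain itself, fell with −0.92 ± 0.07 and −0.99 ± 0.07. IL6ST, the shared receptor chain of the IL-6 family, rose by 0.91 ± 0.16 and 0.78 ± 0.10. Levels of ZNF341 protein were not measured here.

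Over the 8 libraries, which form a treated and a control set, the members whose log2 CPM followed ZNF341 most closely were ZNF784, ZNF25 and ZNF219, at Pearson correlations of 0.986, 0.983 and 0.981. ZNF621, ZNF768 and ZNF211 ran most opposite to it, at −0.984, −0.979 and −0.928. These values describe 8 libraries that share the treatment split, and no p is given.

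Among the promoter motifs, the ETS core showed the widest gap between members and other genes. It was found in 45.4% of 238 member promoters, against 22.8% of 7259 promoters of genes at that mean count and 10.7% of all 27305. KRAB members held it in 53.8% and members without the box in 33%. It was present in 22.2% of 45 promoters of members that rose in both lines, 61.1% of 18 that fell in both and 46.5% of 86 that were called in neither. Of the 108 members with the core, 39 rose and 13 fell in DND-41 (36.1% and 12%). In MOLT-4, 14 of the 108 rose and 24 fell (13% and 22.2%). Of members without it, 60 of 130 rose and 9 fell in DND-41 (46.15% and 6.92%). In MOLT-4, 44 of 129 rose and 14 fell (34.1% and 10.85%). Of all genes at that mean, 26% rose and 26% fell in DND-41, and 27.1% and 25.3% in MOLT-4. The motif was chosen for this split by its shares in these data, and all genes were not split by it. The GC box was in 63.9% of member promoters, 71.9% of those of genes at that mean and 44.6% of all, and the RBPJ core in 34.5%, 21.5% and 24.3%. In the same order, the CRE core was in 12.6%, 13.2% and 8.32%, the CCAAT box in 44.5%, 38.1% and 35.7%, and the ZNF143 core in 5.04%, 4.6% and 2.95%. The NRF1 core was in 8.4%, 7.58% and 4.13%, the E-box in 6.3%, 11.2% and 7.43%, and the RUNX core in 10.1%, 9.02% and 13.1%. The TATA box was in 4.2%, 4.53% and 12%, and the AP-1 site in 2.52%, 2.47% and 4.92%. A match is a stretch of letters, not a bound site, and these shares were not tested.

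Other zinc-finger families were counted at the same mean, where 26% of all genes rose and 26% fell in DND-41 and 27.1% and 25.3% in MOLT-4. Of 29 ZBTB genes, 11 rose and 7 fell in DND-41 and 8 rose and 4 fell in MOLT-4, and of 11 ZFP genes, 5 rose and 2 fell in DND-41 and 4 rose and 1 fell in MOLT-4. The 6 ZSCAN and 4 ZKSCAN genes had 2 rises and 1 fall each in DND-41 and 1 of each in MOLT-4. The difference between families was not tested.

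In the authors' deposited table for DND-41, the log2 fold change had the same sign as ACBI-1 over DMSO for all 273 members it could be set against, with ZNF341 at 2.60. In the authors' deposited table for MOLT-4 the sign was opposite for 271 of 273, with ZNF341 at −2.21, and its headers do not give the direction. Directions here follow the names of the count columns.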

How the data were processed

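RNA from 8 libraries was sequenced as strand-specific paired-end reads, per the labels' protocols. The authors deposited raw counts per gene, together with a table per line of log2 fold changes, p-values and test statistics (a score). STAR 2.5.2a, featureCounts, DESeq2 1.12.4 and hg19 are named in the submitters' processing notes. Not given in the sources used here: annotation, strand setting, treatment of multi-mapping reads and filters.

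Groups came from the sample labels. Counts were fitted across all genes with edgeR 4.0.16 (R 4.3.3, limma 3.58.1; filterByExpr with a minimum count of 10, TMM factors, quasi-likelihood test), in each line alone for ACBI-1 over DMSO and over all 8 libraries for the interaction of line and treatment. P-values were Benjamini-Hochberg adjusted over all tested genes. CPM used effective library sizes. DESeq2 1.42.0, size factors, library size alone, other filters, a replicate block, a stricter threshold, a count rule of 500 and leaving out each library were the alternatives. On simulated data with 200 changed genes, edgeR recovered 83% (DND-41, 13789 genes), 87% (MOLT-4, 13962 genes) and 68% (difference, 14969 genes) of changes of 0.5 on the log2 scale, and 8.08%, 3.61% and 2.94% of its calls were false. Those 200 are a far smaller share of genes than was called in the real data, 43.2% of all tested genes in DND-41. The simulated rates therefore need not hold for the real calls.

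KRAB boxes and fingers were found in GENCODE transcripts of GRCh38 translated by script, since no protein table was at hand, with 5 members within 15 bits of the KRAB limit. Neighbours and overlaps came from the same annotation, by name only. Promoters came from RefSeq (GRCh38.p14). Library totals of 19860759 to 20239888 counts give a floor (3 counts) of about 0.15 CPM, for counting error only.

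Members and lists were chosen with earlier results of these data known. Named genes were ZNF341, the 6 largest called rises and falls in each line, the 5 largest in both, the 5 largest called differences of each sign, the 3 highest levels, the genes beside the count rule, tested genes of the role, STAT and corepressor lists, the 3 closest to ZNF341 in pattern and the nearest genes of outliers. Not every gene of the STAT list is reported here.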

Additional observations from a re-analysis of the deposited data

Results flagged for a closer look

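The effect of ACBI-1 was called different between MOLT-4 and DND-41 for 16 of the named members. Each is given here as the log2 effect in MOLT-4 minus that in DND-41. ZNF641, ZNF771, ZNF48, ZNF7, ZNF135, ZNF395, ZNF525, ZNF22, ZNF589 and ZNF692 were named wholly or partly for a called difference. The count of 16 was thus set in part by the naming and is a description with no test. Over all 274 members, 2.19% were higher and 8.03% lower in MOLT-4, against 10.9% and 8.51% of all genes at a mean of 200 counts. The effect was lower in MOLT-4 for ZNF641 (−1.92), ZNF771 (−1.25), ZNF48 (−0.91), ZNF7 (−0.85), ZNF135 (−0.82) and ZNF653 (−0.77). It was also lower for ZNF354A (−0.47), ZNF217 (−0.43), ZNF335 (−0.30) and ZNF384 (−0.24). It was higher in MOLT-4 for ZNF395 (0.96), ZNF525 (0.62), ZNF22 (0.47), ZNF589 (0.39), ZNF692 (0.38) and ZNF367 (0.34). ZNF641 and ZNF771 met the count rule through DND-41 only, and ZNF395 and ZNF525 through MOLT-4 only, so their differences are descriptions of members chosen through the line where they are high. By treatment, ZNF7 and ZNF641 met it through the DMSO libraries only, where they are high, so their differences are likewise descriptions.

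For ZNF653 the treated libraries lay at 12.4 and 13.6 CPM in MOLT-4, against 12.9 and 12.1 CPM with DMSO, and at 20.1 and 20.04 CPM in DND-41, against 11.2 and 11.1 CPM with DMSO (adjusted p of the difference = 6.95e-04). The calls for ZNF335, ZNF354A, ZNF367, ZNF384, ZNF589 and ZNF692 ended under at least 1 alternative. For ZNF525, which met the count rule through MOLT-4 only, no test of the difference is given. None of the 16 changed direction under the alternatives run.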

How the results depend on the processing

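Of 100 named values that were called, 62 were called under every alternative and 0 changed direction. With library size alone in place of TMM factors, the median effect of all genes moved by −0.08 in MOLT-4, −0.12 for the difference and −0.10 for the DMSO comparison. In MOLT-4, 36 members then rose with a median of −0.037, and 3 genes each of the chromatin partner and RNA lists were called. For the difference, 2 members were then higher and 37 lower with a median of −0.23, and for the DMSO comparison over all 274 members 55 were higher with a median of −0.15, against 85 and −0.05. With DESeq2, 66 members rose and 19 fell in DND-41 and 42 rose and 30 fell in MOLT-4, 3 differences were higher, and the calls numbered 3 (RNA list), 5 (activators) and 0 (transposon list) in DND-41 and 1 each (chromatin partners and transposon list) in MOLT-4. Without the low-count filter, 5 activators were called in DND-41. At an adjusted p below 0.01, 67 members rose in DND-41, 3 differences were higher and 12 lower, and the calls numbered 3 (RNA list), 5 (activators) and 2 (transposon list) in DND-41 and 1 (chromatin partners) in MOLT-4. With the member rule at 500 counts, 62 of 125 rose and 12 fell in DND-41, 22 of 124 fell in MOLT-4, 11 of 125 differences were lower, and 43 were higher and 40 lower with DMSO.

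Leaving out each library in turn gave 68 to 125 rises and 22 to 38 falls in DND-41, 54 to 67 rises and 39 to 46 falls in MOLT-4, and 3 to 9 higher and 10 to 31 lower differences. List calls ranged in DND-41 from 2 to 4 (chromatin partners), 2 to 6 (RNA), 5 to 7 (activators), 3 to 4 (transposons), 12 to 24 (corepressors) and 12 to 15 (STAT), and in MOLT-4 from 1 to 5, 4 to 6, 4 to 5, 2 to 4, 13 to 14 and 13 to 14. The cause was not tested, and with a lone library its spread is taken from the other groups.

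With the replicate number as a block, 125 members rose and 35 fell in DND-41, 72 rose and 51 fell in MOLT-4, and 7 differences were higher and 29 lower. Deviations of same-numbered libraries had a correlation of 0.15 in DND-41 over 11013 genes and 0.24 in MOLT-4 over 11012, but with 2 pairs in a line and no label for a shared batch the numbers are not taken to pair the libraries. COL1A1 was higher in both replicate 2 libraries of MOLT-4. At these depths, members at the 200-count mean stand near 10 CPM. The recovery of changes below 0.5 on the log2 scale, or of changes at that level, was not tested.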
